A study of Bos taurus with 13 samples.

Results

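Transient cows (TCs) are dairy cows that moved from negative to positive energy balance after calving, and the comparison described here set the follicular fluid of TCs at weeks 9–10 after calving against that of TCs at weeks 5–6. It used 6 of the 13 small RNA libraries of the series, chosen by their labels: the 3 labelled Late positive (weeks 9–10) and the 3 labelled Early negative (weeks 5–6). The cows were postpartum Holstein-Friesian females, and fluid was drawn by ovum pick-up from large follicles, freed of cells and of larger particles by centrifugation, and ultracentrifuged to pellet extracellular vesicles (EVs), small membrane-enclosed particles shed by cells. Of 20 TCs, fluid of 11 was pooled into 3 pools at weeks 5–6 and fluid of 7 into 3 pools at weeks 9–10, with 1 library a pool. The question was which EV-coupled miRNAs differ once cows have left negative energy balance. How the cows were divided among the pools, and whether the same cows gave fluid at both times, is not given in the sources used here, so energy balance, time after calving and the choice of cows cannot be told apart, and the p-values measure the spread between pools. No value in the files checks which library belongs to which time, so each direction given here rests on the labels. A total of 268 miRNAs were listed in all 6 libraries, of 311 listed for any group of the series, and 224 of the 268 had enough reads to be tested.

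miRNAs are short RNAs that lower the translation and stability of messenger RNAs with matching sites, and many act in families that share a seed, the bases that choose the targets. In the ovarian follicle, granulosa and theca cells release EVs into the fluid around the oocyte, and blood plasma, which also carries EVs, filters into the fluid. An EV miRNA level is therefore a mixture over source cells. Fewer EVs from a cell type and fewer copies of a miRNA in each EV cannot be told apart in it.

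Levels are given in CPM, the reads of a miRNA relative to all reads of its library, after the 6 libraries had been brought to one scale with TMM, a method that sets library sizes so that most miRNAs are level. Values are always given in the order pool 1, pool 2, pool 3, and the pools of weeks 5–6 are also called early and those of weeks 9–10 late. The libraries held 284129 to 362937 reads on the 268 shared miRNAs, and 3 reads, taken as the smallest visible amount, stood at 7.6 to 10.7 CPM. Intervals of single miRNAs come from the spread between pools. Of the miRNAs chosen as markers of follicle cells, bta-miR-21-5p, bta-miR-202 and bta-miR-132 were listed in all 6 libraries, while bta-miR-212 and bta-miR-383 were not. bta-miR-21-5p, an abundant miRNA of granulosa and many other cells, was the most abundant of all, with 98099, 180094 and 70746 CPM at weeks 5–6 and 48196, 140184 and 54588 at weeks 9–10. The gonadal bta-miR-202 had 4089, 3386 and 4611 CPM at weeks 5–6 and 5106, 3873 and 5658 at weeks 9–10. Both overlapped between the times. bta-miR-122, which is made by the liver and circulates in plasma, was present in every pool, at 2785 to 5943 CPM.

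No miRNA was called different between weeks 9–10 and weeks 5–6. A call needed 3 things: a 2-fold difference or more (1 on the log2 scale), an adjusted p-value (Benjamini-Hochberg) no higher than 0.25, and 0.05 as the upper limit of the unadjusted one. With limma 0 of 224 miRNAs (0%) met them, and the lowest adjusted p-value was 0.573. At an unadjusted p-value under 0.05, 7 miRNAs were higher at weeks 9–10 (3.12% of those tested) and 5 were lower (2.23%). A limit of 0.05 passes a share of about 0.05 where nothing differs, and these 12 of 224 lay near that share. edgeR's quasi-likelihood test on the recovered reads also called 0, with 21 at an unadjusted p-value under 0.05, whereas DESeq2 called 1 (bta-miR-592) and had 26. Between groups without overlap, 15 miRNAs had all 3 values of weeks 9–10 above all 3 of weeks 5–6 (6.7%), and 15 had them all below (6.7%). Overlap of single miRNAs is judged on the TMM scale of the 6 libraries unless stated otherwise, and it depended on the scaling. The counts were 30 above and 7 below with library totals in place of TMM, and 27 and 5 with the values as deposited. For such a miRNA the exact two-sided permutation test gives p = 0.1, the smallest that 3 against 3 pools allow. Where nothing differs, a share of about 0.1 would therefore separate in either direction. Log2 fold changes are given as weeks 9–10 minus weeks 5–6 on the log2(CPM + 5) scale, which understates the change of low miRNAs. They were above 0 for 103 miRNAs and below 0 for 121, with a median of −0.05. They reached 1 or more for 8 miRNAs and −1 or less for 20.

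Few single miRNAs were bounded closely. The standard error of a log2 fold change had a median of 0.46 and ranged from 0.28 to 1.58. The 95% interval included 0 for 212 of the 224 miRNAs, lay within −1 and 1 for 24, and within −2 and 2 for 174. The narrowest intervals belonged to bta-miR-16a, bta-miR-31, bta-miR-423-3p, bta-miR-660 and bta-miR-148b. bta-miR-31, for example, had 2106, 2214 and 1788 CPM at weeks 5–6 and 2215, 1971 and 2343 at weeks 9–10, a difference of 0.10 with an interval of −0.55 to 0.74. For that miRNA a 2-fold difference in either direction lies outside the interval, which cannot be said of most others.

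The count of calls rested on 1 library. Without pool 2 of weeks 5–6, 22 miRNAs were called, 6 higher and 16 lower at weeks 9–10, with 30 at an unadjusted p-value under 0.05. Leaving out any other pool gave 0 calls. The unadjusted count was then 5 without pool 1 and 8 without pool 3 of weeks 5–6, and 7, 21 and 4 without pools 1, 2 and 3 of weeks 9–10. With the day on which the RNA was measured as a covariate (pools 1 on one day, pools 2 and 3 on the next, at both times), no miRNA was called (0) and the unadjusted count was 7. The split between higher and lower depended on the scaling. Of the miRNAs at an unadjusted p-value under 0.05, 15 were higher and 1 was lower when library totals replaced TMM, 13 were higher and 3 lower with the values as deposited, and 7 were higher and 7 lower with median-of-ratios size factors. Library totals moved the median of all miRNAs from −0.05 to 0.17 and the deposited scale moved it to 0.09.

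Among the miRNAs higher at weeks 9–10, bta-miR-592 had the lowest p-value of the comparison. Its gene lies within GRM8, the gene of a metabotropic glutamate receptor, in the RefSeq annotation. It had 22.7, 35.5 and 42.9 CPM at weeks 5–6 and 88.4, 142.8 and 104.6 CPM at weeks 9–10. All pools of weeks 9–10 lay above all those of weeks 5–6, and the lowest of them was over 2-fold the highest early pool. The log2 fold change was 1.60 (SE 0.46, 95% interval 0.57 to 2.64, limma adjusted p = 0.573). The p-value stayed under 0.05 in all 17 alternatives that tested it, with log2 fold changes of 1.29 to 1.83 and adjusted p-values of 0.162 to 0.832. The filter of at least 50 reads on average left it out, since it had too few reads.

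Both arms of the bta-miR-2483 precursor, described in cattle and encoded within TENM1, moved alike. The 5p arm had 61.6, 68.1 and 60.8 CPM at weeks 5–6 and 126.3, 121.9 and 223 at weeks 9–10, and the 3p arm had 421.2, 565.3 and 450.7 and then 896.5, 630.3 and 1035. Neither arm overlapped between the times, and the early pools of the 5p arm lay closer together than the late ones. The log2 fold change was 1.19 (SE 0.44) for bta-miR-2483-5p and 0.81 (SE 0.35) for bta-miR-2483-3p, both with a limma adjusted p-value of 0.573. The 2 arms come from 1 precursor and are not independent observations.

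bta-miR-451 and bta-miR-486 are the most abundant miRNAs of red blood cells. bta-miR-451 had 35.6, 56.2 and 150.2 CPM at weeks 5–6 and 131.3, 647.7 and 286.3 at weeks 9–10. Pool 3 of weeks 5–6 lay above pool 1 of weeks 9–10, so the groups overlapped, and the log2 fold change was 2.02 (SE 0.70, 95% interval 0.44 to 3.60, limma adjusted p = 0.573), the highest of all 224. bta-miR-486, whose gene lies within ANK1, had 674, 923.5 and 5666 CPM and then 2386, 9998 and 3805. The same early pool 3 was high again, and the difference of 1.56 (SE 0.81, 95% interval −0.28 to 3.39) did not reach an unadjusted p-value of 0.05. Summed over these erythroid markers, 2 of 2 were higher in the mean at weeks 9–10 and the level ranged from 709.6 to 5816 CPM at weeks 5–6 and from 2518 to 10646 at weeks 9–10. bta-miR-144, encoded beside bta-miR-451, was not among the miRNAs listed in all 6 libraries. The study states that fluid with blood contamination was discarded. The part of red cells in the other differences was not tested.

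The 6 tested leukocyte miRNAs did not share that direction: 2 were above 0 and 4 below, with a median of −0.13 (0.11 with library totals, 4 above 0) and 0 at an unadjusted p-value under 0.05. The median was −0.63 without late pool 2 and 0.31 without late pool 3. bta-miR-223, the myeloid marker, had 194.4, 204.2 and 286.1 CPM at weeks 5–6 and 229.8, 435.3 and 99.1 at weeks 9–10. bta-miR-142-5p, found throughout blood cells, had 1380, 1640 and 1753 and then 868.7, 2497 and 958.2. The summed leukocyte level ran from 3270 to 3380 CPM at weeks 5–6 and from 1795 to 5015 at weeks 9–10, so the late pools lay on both sides of the early ones.

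**Figure D1:**
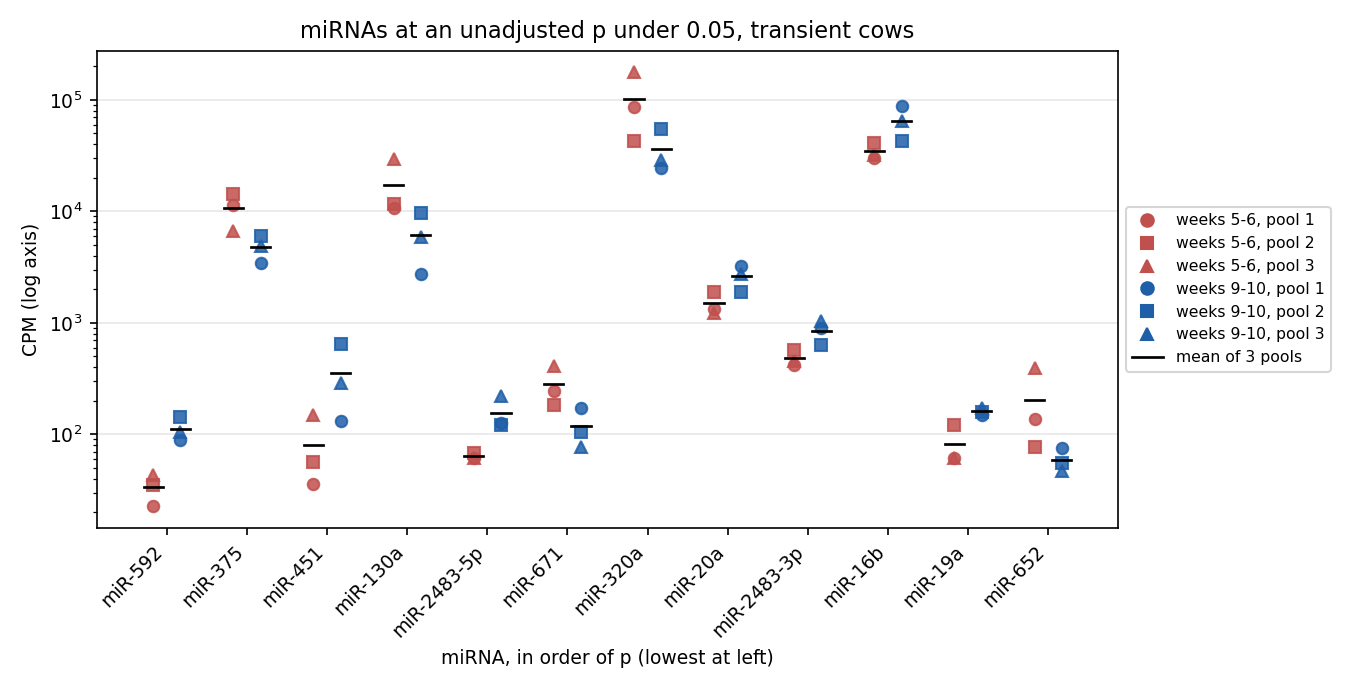
Levels of the 12 miRNAs at an unadjusted p-value under 0.05, in CPM on a log axis, with 1 symbol a pool (red for weeks 5–6, blue for weeks 9–10, symbol shape for the pool number) and a bar at the mean of 3 pools. The blue and red symbols separate for bta-miR-592 (at most 42.9 against at least 88.4 CPM) and overlap for bta-miR-451, bta-miR-320a and bta-miR-20a.

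The miR-17-92 cluster and its paralogs, which drive proliferation in many cell types, stood mostly on the higher side. Of its 10 tested members, 9 were above 0 and 1 below, with a median log2 fold change of 0.52 beside −0.05 over all 224, and 2 were at an unadjusted p-value under 0.05. The same 9 to 1 split was seen under each of the 3 other scalings, and it was 8 to 2 without early pool 2 or late pool 2. With each pool left out the median ran from 0.41 to 0.97, the last without late pool 2. bta-miR-20a had 1329, 1909 and 1238 CPM at weeks 5–6 and 3265, 1874 and 2745 at weeks 9–10, overlapping through pool 2 of either time (log2 fold change 0.80, SE 0.34). bta-miR-19a, from the same precursor transcript, had 61.6, 121.4 and 60.8 and then 149, 160.2 and 173.5, with no overlap (1.01, SE 0.44). Both had a limma adjusted p-value of 0.573. The most abundant members were bta-miR-92a and bta-miR-25. bta-miR-25, from the paralogous cluster within MCM7, had 23985, 32804 and 28207 CPM and then 40842, 36517 and 43063, with no overlap and a difference of 0.51 (SE 0.31). bta-miR-92b was the exception, with 3752, 2285 and 10609 and then 1364, 3392 and 2194. Its gene has no neighbouring miRNA gene, whereas the genes of the 9 others lie together in clusters. Those 9 are therefore not independent observations. As a share of all reads on the shared miRNAs, the members together held 8.40%, 8.34% and 8.14% at weeks 5–6 and 12.7%, 11.9% and 13.4% at weeks 9–10. These shares lay close together within a time and did not overlap between times. They rest on library totals, the scaling that raised the median of all miRNAs. On the TMM scale the summed level was 78961, 87775 and 105667 CPM at weeks 5–6 and 114607, 117729 and 116718 at weeks 9–10. The early pools then lay further apart, still without overlap. The exact two-sided permutation test on the shares gave p = 0.1, its smallest possible value. The shares of other lists, such as miR-15/16 and miR-26, reached it too.

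In the miR-15/16 family, whose members repress cyclins, both miR-16 forms were without overlap. bta-miR-16b, the fourth most abundant miRNA, had 30265, 41015 and 31898 CPM at weeks 5–6 and 87515, 42500 and 64825 at weeks 9–10. The lowest late pool lay just above the highest early one, and the difference was 0.87 (SE 0.38, limma adjusted p = 0.573). bta-miR-16a had 4673, 5568 and 5458 and then 8020, 6878 and 8568, also without overlap (0.58, SE 0.28). bta-miR-16b is also abundant in red blood cells. bta-miR-15a, bta-miR-15b, bta-miR-195 and bta-miR-497 overlapped, at −0.17 (SE 0.45), 0.30 (SE 0.36), −0.03 (SE 0.33) and −0.02 (SE 0.34), and no test compared the miR-16 forms with them. Over the 6 tested members 3 were above 0 and 3 below, with a median of 0.14, and all 6 were above 0 with library totals in place of TMM or without early pool 3. With each pool left out the median ran from −0.03 to 0.37.

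Among the let-7 and miR-98 family, which promote differentiation and held 7.74% to 22.3% of reads, 7 of 9 members were above 0 (9 of 9 with library totals or as deposited) with a median of 0.27, and 0 were at an unadjusted p-value under 0.05. With each pool left out, 6 to 8 were above 0 and the median ran from 0.16 (without early pool 3) to 0.46 (without early pool 2). bta-let-7i alone did not overlap, with 18097, 18985 and 19007 CPM at weeks 5–6 and 29816, 21358 and 22528 at weeks 9–10, a difference of 0.38 (SE 0.30). The most abundant member, bta-let-7b, had 43444, 76267 and 35589 and then 78520, 43813 and 46289. Its difference was 0.14 (SE 0.42), and the highest pool of either time lay far above the other 2. Other miRNAs that were higher without overlap were bta-miR-148b (0.63, SE 0.29), bta-miR-101 (0.57, SE 0.30), bta-miR-532 (0.69, SE 0.36), bta-miR-423-3p (0.48, SE 0.29), bta-miR-2284z (0.42, SE 0.38), bta-miR-411a (0.71, SE 0.44) and bta-miR-199b (1.21, SE 0.56). The last was low, with 38.9, 17.8 and 7.15 CPM and then 42.9, 59.2 and 44.1, and pool 3 of weeks 5–6 was under the level of 3 reads.

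Of the miRNAs lower at weeks 9–10, bta-miR-375 had the lowest p-value. It is best known from pancreatic islets, where it restrains insulin secretion. It had 11451, 14190 and 6599 CPM at weeks 5–6 and 3429, 5969 and 4840 at weeks 9–10. The groups did not overlap on the TMM scale, although early pool 3 and late pool 2 were close, and the log2 fold change was −1.14 (SE 0.38, 95% interval −2.01 to −0.28, limma adjusted p = 0.573). It had an unadjusted p-value under 0.05 in 13 of 18 alternatives, with log2 fold changes of −1.49 to −0.86.

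bta-miR-130a, which promotes blood vessel growth in endothelial cells, had 10774, 11626 and 29702 CPM at weeks 5–6 and 2770, 9566 and 5892 at weeks 9–10. No pools overlapped. The log2 fold change was −1.52 (SE 0.54, 95% interval −2.76 to −0.29, limma adjusted p = 0.573), and the p-value was under 0.05 in 15 of 18 alternatives. Its relatives bta-miR-130b and bta-miR-301a, which share its seed, stood at −0.51 (SE 0.44) and 0.39 (SE 0.50). Their pools overlapped.

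bta-miR-671, encoded within CHPF2, had 246.3, 183.5 and 411.3 CPM and then 171.7, 104.5 and 77.1, without overlap (−1.21, SE 0.48). bta-miR-652, encoded within TMEM164, had 136.1, 77 and 393.5 and then 75.8, 55.7 and 46.8 (−1.39, SE 0.61). There, early pool 2 was only just above the highest late pool and early pool 3 was far above. The limma adjusted p-value of both was 0.573, as it was for all 12 miRNAs at an unadjusted p-value under 0.05.

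bta-miR-320a, the second most abundant miRNA, is made without the Drosha enzyme that cuts most miRNA precursors. It had 85986, 43037 and 175894 CPM at weeks 5–6 and 24316, 54215 and 29073 at weeks 9–10. Early pool 2 lay below late pool 2, so the groups overlapped, and the difference was −1.36 (SE 0.56, 95% interval −2.62 to −0.10, limma adjusted p = 0.573). All 4 tested members of the list of miRNAs made outside the usual pathway were below 0, with a median of −0.69, of which 1 was at an unadjusted p-value under 0.05. With library totals or the deposited scale, 1 of the 4 was above 0. Without early pool 3 it was 2 of 4, with a median of −0.13, and without late pool 1 it was also 2 of 4, with a median of −0.17. The median was −1.20 without early pool 2 and −1.05 without late pool 2.

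The 12 miRNAs differed in how often their unadjusted p-value stayed under 0.05 in the alternatives. Beside the counts given for bta-miR-592, bta-miR-375 and bta-miR-130a, it did so in 15 of 17 for bta-miR-2483-5p, 15 of 18 for bta-miR-451, 12 of 18 for bta-miR-671, 11 of 18 for bta-miR-16b and for bta-miR-20a, 10 of 18 for bta-miR-320a, 9 of 17 for bta-miR-19a, 8 of 18 for bta-miR-2483-3p and 7 of 17 for bta-miR-652. Single pools moved some of the sizes. The log2 fold change of bta-miR-652 was −0.80 and that of bta-miR-320a −0.88 without early pool 3, and that of bta-miR-130a was −0.98 without late pool 1.

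**Figure D2:**
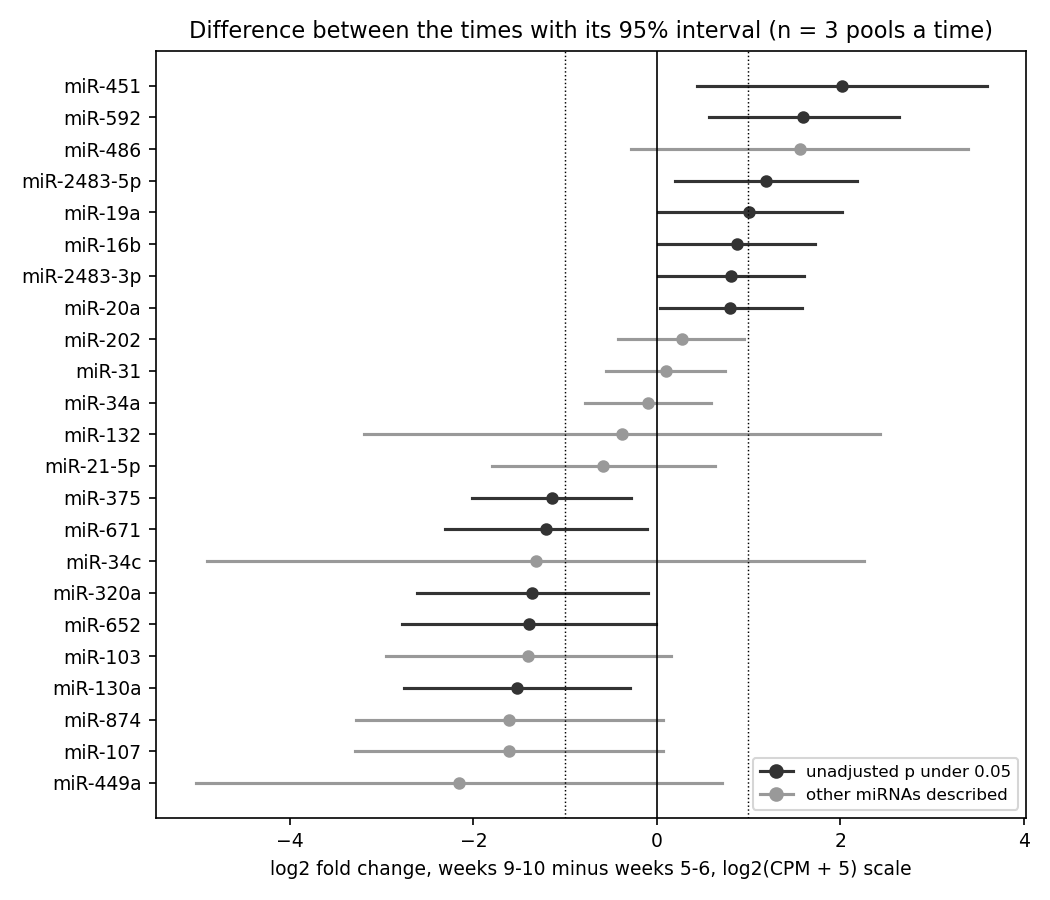
Log2 fold change (weeks 9–10 minus weeks 5–6, log2(CPM + 5) scale) with its 95% interval from limma, for the 12 miRNAs at an unadjusted p-value under 0.05 (dark) and 11 others described (grey), with dotted lines at −1 and 1. The intervals of bta-miR-34c (−4.91 to 2.26) and bta-miR-449a (−5.03 to 0.71) are the widest shown, and those of bta-miR-31 and bta-miR-34a lie within −1 and 1.

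bta-miR-103 and bta-miR-107, a pair with the same seed that lowers insulin sensitivity in mice, are encoded within the pantothenate kinase genes PANK3, PANK2 and PANK1. bta-miR-103 had 22012, 9016 and 66211 CPM at weeks 5–6 and 5642, 15121 and 8439 at weeks 9–10. bta-miR-107 had 21649, 7705 and 66561 and then 4144, 13192 and 7109. In both, early pool 3 was the highest of all 6, early pool 2 lay among the late pools, and the differences of −1.40 (SE 0.68) and −1.61 (SE 0.74) did not reach an unadjusted p-value of 0.05. Without early pool 2 they were −2.09 and −2.38, and both were called with a limma adjusted p-value of 0.147. These were the largest sizes with a pool left out. Over all such fits the differences ran from −2.09 to −0.69 for bta-miR-103 and from −2.38 to −0.86 for bta-miR-107.

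The same order of early pools, pool 3 high and pool 2 low, recurred in miRNAs of other families. The clusters of miR-23, miR-24 and miR-27 had 4 of 5 tested members below 0, with a median of −0.90 (−0.44 without late pool 1), and bta-miR-24-3p alone did not overlap (14342, 12976 and 21554 CPM, then 5654, 12109 and 12685). bta-miR-23b-3p had 15570, 7986 and 39689 and then 3659, 12492 and 6033, a difference of −1.39 (SE 0.63). bta-miR-873 had 4374, 1095 and 9915 and then 792.9, 2044 and 1881 (−1.32, SE 0.74), and bta-miR-874 had 81, 23.7 and 214.6 and then 12.6, 31.3 and 24.8 (−1.61, SE 0.74). In each of the last 3, early pools 1 and 3 were above all late pools while early pool 2 was not. Of the 20 miRNAs with a log2 fold change of −1 or less, 15 had their highest value in early pool 3 and 14 their lowest in pool 1 of weeks 9–10. The remaining 5 had their highest in early pool 2. Over all 224 tested miRNAs, early pool 3 was the highest for 66, early pool 2 for 41, and late pool 1 the lowest for 66. The 20 were picked for being lower late than early. That alone places most of their highest values in early pools and most of their lowest in late ones.

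**Figure D3:**
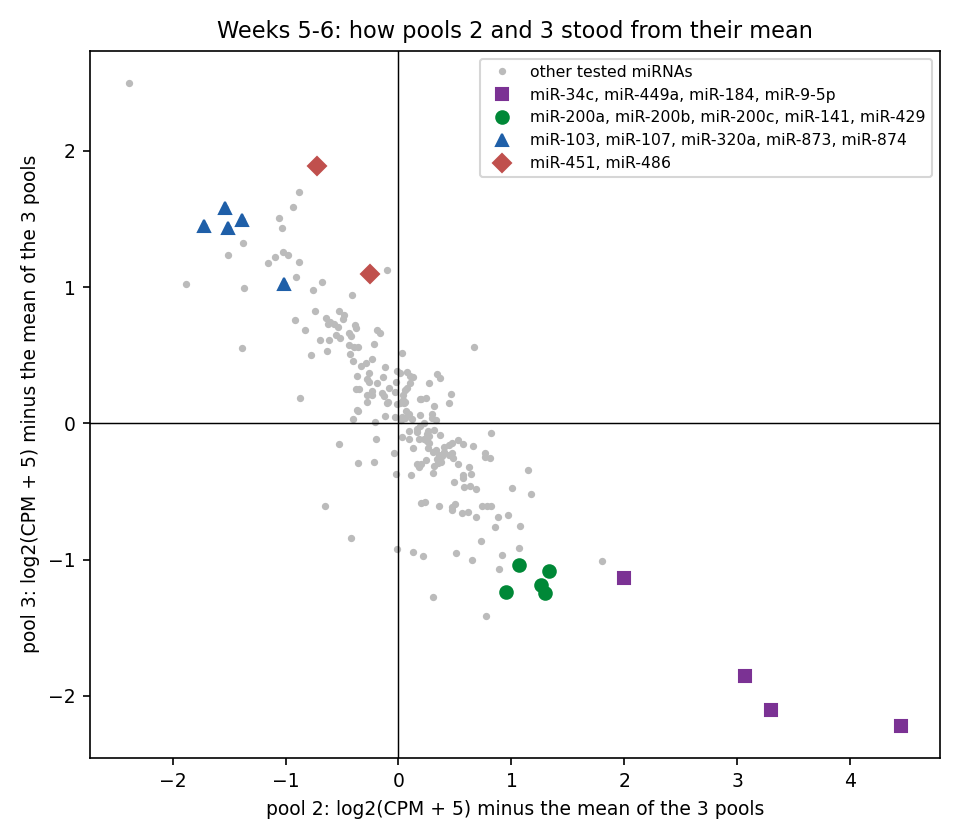
Each point is 1 of the 224 tested miRNAs, placed by how far pool 2 (horizontal) and pool 3 (vertical) of weeks 5–6 stood from the mean of the 3 early pools, in log2(CPM + 5). bta-miR-103, bta-miR-107, bta-miR-320a, bta-miR-873 and bta-miR-874 lie at the upper left, high in pool 3 and low in pool 2, and bta-miR-34c, bta-miR-449a, bta-miR-184 and bta-miR-9-5p lie at the lower right, with the miR-200 family on the same side.

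The pools of 1 time also differed among themselves. The SD of log2(CPM + 5) over 3 pools had a median of 0.51 at weeks 5–6 and 0.47 at weeks 9–10, and it exceeded 1 for 39 miRNAs at the earlier time and for 25 at the later one. It was larger at weeks 5–6 for 122 of 224. At weeks 5–6, 8 miRNAs in pool 1, 30 in pool 2 and 37 in pool 3 stood more than 2-fold from their group mean, beside 16, 16 and 11 in the pools of weeks 9–10. Across miRNAs the deviations of early pools 2 and 3 had a correlation of −0.86, against −0.42 for pools 1 and 2 and −0.11 for pools 1 and 3. Deviations from a mean of 3 add up to 0 and are pulled below 0 by that alone, and miRNAs are not independent replicates.

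The miR-34 and miR-449 families share a seed. The miR-34 genes respond to the tumour suppressor p53, and miR-34b, miR-34c and miR-449 are abundant in multiciliated epithelium. bta-miR-34c had 74.5, 8146 and 75.1 CPM at weeks 5–6 and 138.9, 275.1 and 77.1 at weeks 9–10. Early pool 2 alone was high, at 109-fold the lower of the other early pools. Both of those lay below late pools 1 and 2 but only just below late pool 3. With all 13 libraries scaled together, early pool 1 (78.8 CPM) lay above late pool 3 (73.5). The difference was −1.32 (SE 1.58, limma adjusted p = 0.772) with all pools and 0.90 without early pool 2, so its sign followed that pool. bta-miR-449a had 81, 1672 and 50.1 and then 68.2, 87.1 and 8.26, a difference of −2.16 (SE 1.26), the lowest of all 224, and −0.62 without that pool. bta-miR-34b, whose gene neighbours that of bta-miR-34c, was listed at weeks 5–6 only, with 3, 169 and 1 reads, and was high in the same pool. bta-miR-34a, encoded elsewhere, was level, with 904.1, 950.1 and 819.1 CPM and then 787.9, 807.9 and 905.9 (−0.10, SE 0.30, 95% interval −0.78 to 0.59).

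Early pool 2 was also the highest early pool for epithelial miRNAs. All 5 members of the miR-200 family, which holds cells in an epithelial state, were below 0 with a median of −0.69 and 0 at an unadjusted p-value under 0.05. bta-miR-200a had 6043, 15190 and 2783 CPM at weeks 5–6 and 2391, 6227 and 3621 at weeks 9–10, and bta-miR-141 had 1322, 3374 and 575.9 and then 287.9, 867.1 and 724.1. Pool 2 was the highest of each time in both. Without early pool 2 the median of the family was −0.12, with 2 members above 0. It was −0.20 without late pool 1, −1.34 without early pool 3 and −1.16 without late pool 2. bta-miR-184, found in epithelia such as the cornea, had 58.3, 1412 and 28.6 and then 83.3, 1174 and 187.2 (0.91, SE 1.40), so a single pool of either time held most of it. Of the list with bta-miR-184, bta-miR-205, bta-miR-182 and bta-miR-183, 3 of 4 tested members were above 0, with a median of 0.20. This direction rested on single pools, since 0 of 4 were above 0 without early pool 3 (median −0.29) or without late pool 2 (median −0.22), and 2 of 4 were with edgeR (median −0.01).

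bta-miR-132, which luteinizing hormone induces in granulosa cells, varied most among the late pools. It had 259.2, 213.1 and 1241 CPM at weeks 5–6 and 2750, 149.7 and 71.6 at weeks 9–10. One pool of each time lay far above the others, and the difference of −0.38 (SE 1.24) was 0.80 with edgeR's quasi-likelihood test and 0.79 with DESeq2. The inflammation-linked bta-miR-146b was highest in the same late pool, with 657.8, 405.5 and 189.6 and then 1722, 334.3 and 145.9. bta-miR-1246 ran the other way there, with 9792, 3650 and 23664 and then 1452, 16685 and 11625.

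Other families with all members below 0 and 0 at an unadjusted p-value under 0.05 were the miR-424, miR-503, miR-542 and miR-450 cluster, which is induced during differentiation (7 of 7, median −0.56, but 4 of 7 with library totals), miR-29, which represses collagen genes (4 of 4, median −0.55), miR-221 and miR-222 (2 of 2, median −0.62), miR-192, miR-194 and miR-215 (3 of 3, median −0.33, but 2 of 3 with library totals), miR-26 (2 of 2, median −0.61) and miR-181 (2 of 2, median −0.54). With each pool left out, up to 3 members of the miR-424 cluster were above 0 (without early pool 3, median −0.25), and the members of the other 5 families stayed below 0, with medians from −0.96 to −0.13. bta-miR-26a had 9731, 14711 and 17097 CPM at weeks 5–6 and 8801, 9065 and 6509 at weeks 9–10, without overlap (−0.75, SE 0.33). Both tested miR-181 members were also lower without overlap on the scale of the 6 libraries. With all 13 libraries scaled together bta-miR-181a overlapped, with 1384 CPM in early pool 3 and 1427 in late pool 2. In the muscle list, bta-miR-145, a smooth muscle miRNA, was lower without overlap (2560, 2178 and 3012, then 1066, 2041 and 1635, difference −0.74, SE 0.34), while bta-miR-143, its cluster partner, stood at −0.20 (SE 0.32). bta-miR-499, a muscle miRNA encoded within MYH7B, was low and did not overlap, with 42.1, 41.4 and 50.1 and then 20.2, 10.4 and 30.3 (−1.04, SE 0.49). Of the 8 tested miRNAs of the imprinted DLK1-DIO3 cluster 7 were above 0, with a median of 0.27 (0.13 without late pool 1 and 0.55 without late pool 3). The ruminant miR-2284 and miR-2285 family, whose near-identical members could have shared reads, had 5 of 9 members counted above 0 and 4 below, with a median of 0.00. The other lists with 2 or more tested members (miR-30, miR-99 and miR-100, miR-125, miR-148 and miR-152, miR-378, the HOX cluster miRNAs, miR-126 and an X-linked cluster) had medians between −0.42 and 0.30, and between −0.89 and 0.66 with each pool left out.

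**Figure D4:**
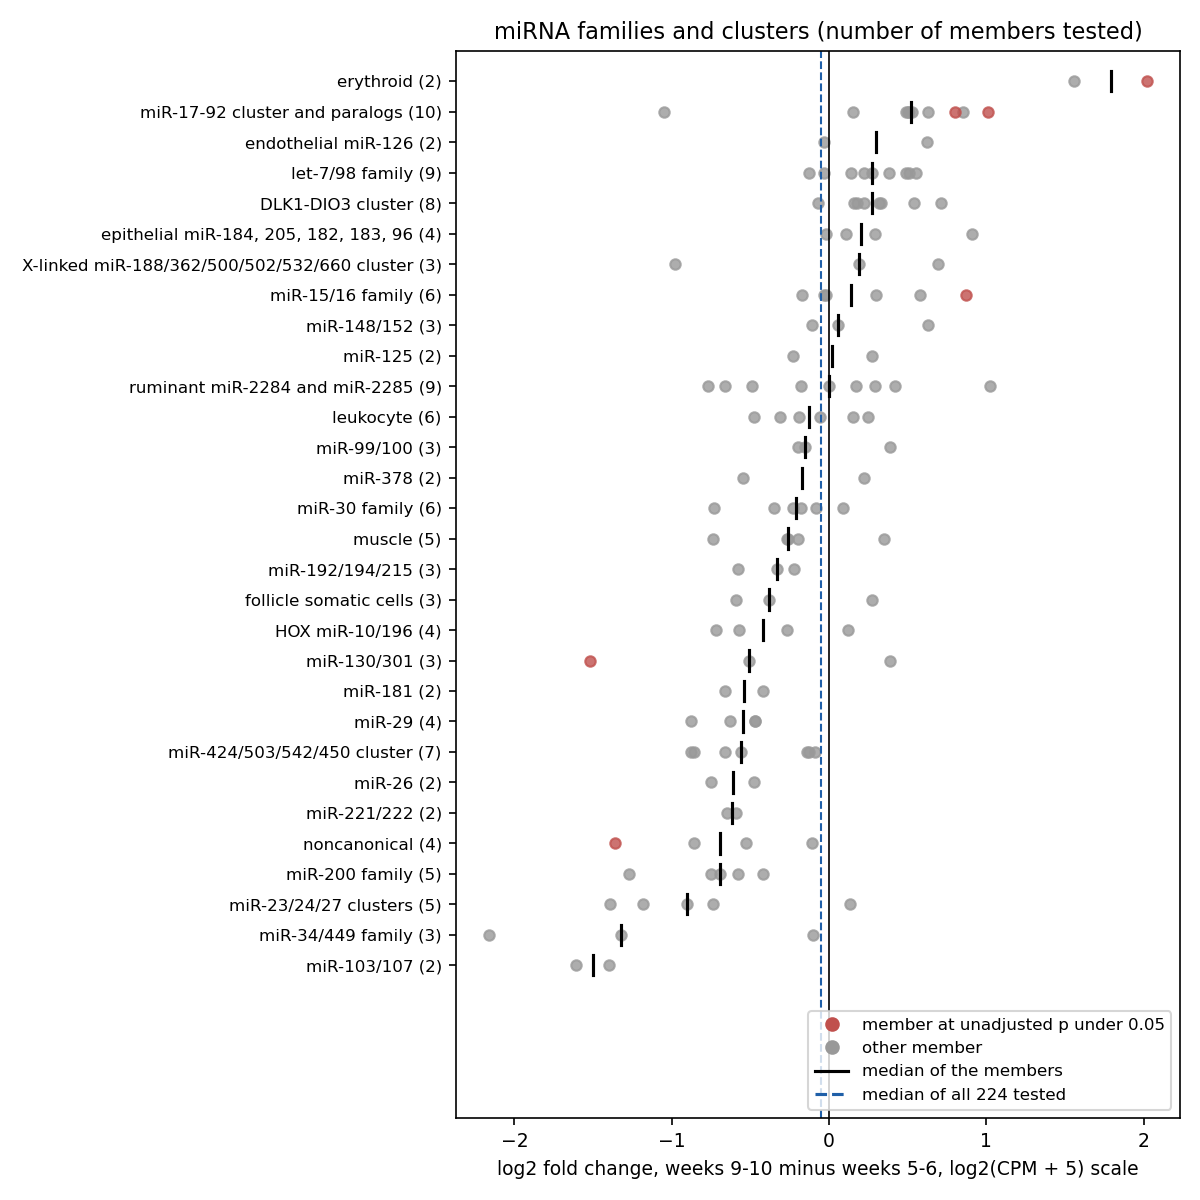
Log2 fold changes (weeks 9–10 minus weeks 5–6, log2(CPM + 5) scale) of the tested members of each miRNA list with 2 or more of them, 1 point a miRNA, red where the unadjusted p-value was under 0.05, with a bar at the list's median and a dashed line at the median of all 224 (−0.05). The erythroid list (median 1.79) and the miR-17-92 list (0.52) stand at the top and the pair of miR-103 and miR-107 (−1.50) at the bottom.

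A further 17 miRNAs were listed at weeks 5–6 alone and 14 at weeks 9–10 alone. Nearly all were at the edge of detection. Beside bta-miR-34b, the highest value at weeks 5–6 was 15 reads, of bta-miR-96 in pool 2. At weeks 9–10 it was 22 reads, of bta-miR-6528 in pool 1, with 5 and 0 in pools 2 and 3. Their reads at the other time were not analysed here, so no difference is given for them.

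The other groups of the series give a scale for these levels. They are the cows that were always in negative (ANCs) or always in positive energy balance (APCs), both sampled at weeks 5–6 with 2 pools each, and heifers, with 3 pools. With all 13 libraries scaled together, bta-miR-592 had 85.1, 147 and 99.8 CPM in TCs at weeks 9–10, 71.3 and 46.9 in ANCs, 37.7 and 30.1 in APCs, and 24.7, 15 and 40.4 in heifers. Each late TC pool was above each of the other 10 pools. This order was not tested. bta-miR-2483-5p had 118.9 and 140.6 in ANCs, 109.8 and 76.8 in APCs and 93.9, 64.9 and 137.5 in heifers, which span both TC times. bta-miR-320a had 135543 and 158836 in APCs, near early TC pool 3 alone, and 44482 and 92186 in ANCs. Heifers had 28406, 20177 and 54422, near the late TC pools and early TC pool 2. The early TC pools were at 90939, 41361 and 168849 on this scale and the late ones at 23417, 55827 and 27720. bta-miR-130a had 2451, 2344 and 9127 in heifers, again near the late TC pools, 5800 and 15446 in ANCs, and 13741 and 33415 in APCs, which were above every late TC pool, beside 11174 to 28512 in the early TC pools. bta-miR-451 had 0 and 33.5 in ANCs, 768.5 and 143.6 in APCs and 370.6, 167.3 and 121.3 in heifers.

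**Figure D5:**
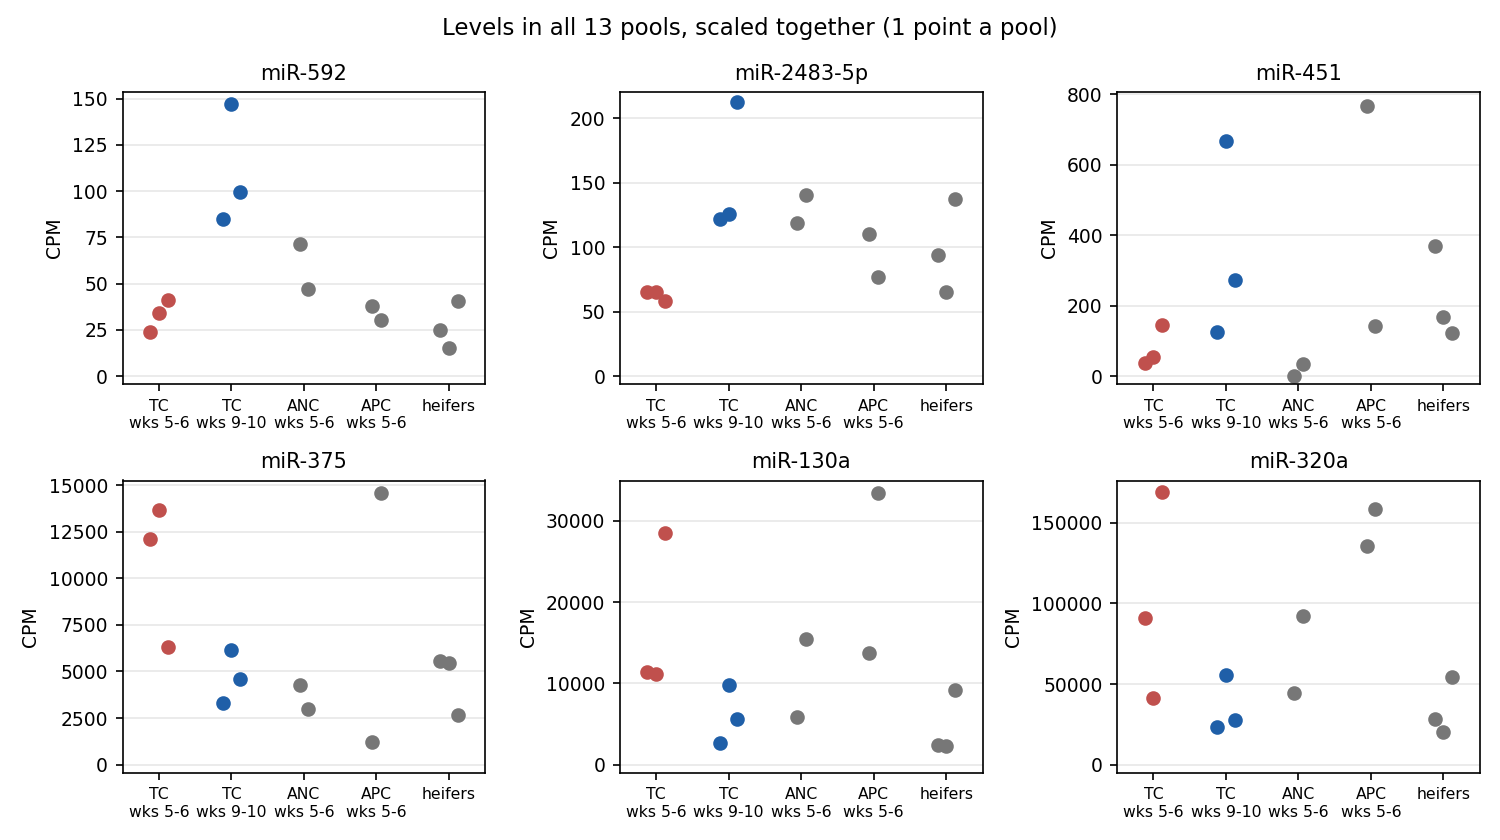
CPM of 6 miRNAs in all 13 pools, 1 point a pool, with all libraries scaled together (red for TCs at weeks 5–6, blue for TCs at weeks 9–10, grey for ANCs, APCs and heifers). For bta-miR-592 the blue points (85.1 to 147 CPM) lie above every other pool, whereas for the other 5 the spread within APCs, ANCs or heifers reaches into the range of the TC pools.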

How the data were processed

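The 6 libraries were made with the QIAseq miRNA kit from EV RNA of pooled follicular fluid. The authors trimmed adaptors with Cutadapt 1.11, mapped reads to the bovine genome (UMD3.1) with Bowtie2 2.2.2 and annotated them against miRBase release 20. They scaled the values with TMM, which sets library sizes on the assumption that most miRNAs are level. The deposited values are CPM after TMM scaling, and where the values of a library sum to more than that unit allows they were recorded as a signal in the authors' unit. Because values of 1 library were whole multiples of what 1 read is worth, reads were recovered (100% of values within 0.15 of a whole read in every library) and the 6 libraries were scaled together with TMM over the 268 shared miRNAs (edgeR 4.0.16, R 4.3.3). filterByExpr (minimum count 10, minimum total 15) left 224 miRNAs. log2(CPM + 5) of the 6 libraries was fitted with limma 3.58.1, using a mean-variance trend, with Benjamini-Hochberg adjustment over all 224. The call thresholds were those of the study. The procedure was run on simulated reads with known changes. That simulation drew miRNAs independently, so it does not cover pools that deviate in many miRNAs together.

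Groups came from the labelled metabolic status. Replicate numbers were not used as a block. Alternatives were edgeR's quasi-likelihood test and DESeq2 1.42.0 on recovered reads, other pseudocounts, filters and scalings, and each pool left out. Counts of miRNAs without overlap under other scalings were added after seeing the data. Depth limits the low miRNAs (3 reads at 7.6 to 10.7 CPM, counting error only). The exact two-sided permutation test of 3 against 3 pools cannot go below p = 0.1, so single miRNAs carry limma's adjusted p-values.

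The members and lists were chosen with earlier results of these data known. The text names the miRNAs that the study names for this or the neighbouring comparison, those at an unadjusted p-value under 0.05, the 5 largest differences each way with and without overlap, the 10 most abundant, up to 4 of each list, the 5 narrowest intervals and those listed at 1 time only. Not all of these are printed with values, and a few others complete a family. Neighbouring and spanning genes come from RefSeq (assembly ARS-UCD2.0, another build than the authors', so no coordinates are given), where all 268 miRNAs matched a gene. miRNA sequences were not used here.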

Additional observations from a re-analysis of the deposited data

How the results depend on the processing

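The count of 0 calls also held with edgeR's quasi-likelihood test, pseudocounts of 1 and 20, the 3 other scalings, both other filters, all 13 libraries in 1 fit, the RNA day and an adjusted p-value limit of 0.05. DESeq2 called 1 miRNA (bta-miR-592, log2 fold change 1.73, adjusted p = 0.162). Leaving out each pool gave 0 to 22 calls, and the 22 arose without pool 2 of weeks 5–6 alone. The count of 12 at an unadjusted p-value under 0.05 was 21 with edgeR's quasi-likelihood test, 26 with DESeq2, 7 with the RNA day, and 4 to 30 with each pool left out. Of those 12 miRNAs, 10 were among the 21, 12 among the 26 and 6 among the 7. With pools 1, 2 and 3 of weeks 5–6 left out in turn, 2, 10 and 4 of the 12 stayed under 0.05, and with pools 1, 2 and 3 of weeks 9–10 left out 4, 8 and 2 did. Whether replicate numbers pair the pools is not known. Same-numbered deviations had correlations of −0.01, −0.03 and 0.10, which cannot decide it, since deviations within a time add up to 0 and miRNAs are not independent. With the replicate number as a block the counts were 0 called and 8 at an unadjusted p-value under 0.05, 5 of them among the 12. miRNAs without overlap numbered 30 higher and 7 lower with library totals and 27 and 5 as deposited.

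No miRNA at an unadjusted p-value under 0.05 changed direction under any alternative run. Direction turned for bta-miR-132 (0.80 with edgeR, 0.79 with DESeq2) and bta-miR-184 (−0.06 and −0.02), and with library totals for bta-miR-143 (0.04), bta-miR-125a (0.01) and bta-miR-148a (0.13, and 0.04 as deposited). With each pool left out, log2 fold changes ran from −2.46 to 0.90 for bta-miR-34c, −1.87 to 0.65 for bta-miR-132, −0.17 to 2.56 for bta-miR-184, −2.08 to 0.34 for bta-miR-450a, −1.27 to 0.17 for bta-miR-30f, −0.04 to 0.51 for bta-let-7a-5p, −0.12 to 0.46 for bta-let-7b, −0.02 to 0.63 for bta-miR-199a-3p, −0.10 to 0.53 for bta-miR-92a, −0.79 to 0.04 for bta-miR-142-5p, −0.93 to 0.05 for bta-miR-146a, −0.41 to 0.56 for bta-miR-205, −0.53 to 0.15 for bta-miR-125a, −0.06 to 0.52 for bta-miR-125b, −0.08 to 0.21 for bta-miR-10b, −0.29 to 0.06 for bta-miR-148a, −0.27 to 0.65 for bta-miR-432 and −0.03 to 0.17 for bta-miR-31. The cause was not tested. The low depth limits miRNAs near 3 reads, and 44 listed miRNAs had too few reads to be tested.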
